A study of Mus musculus with 67 samples.

Results

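Polycomb repressive complex 2 (PRC2) and the enzymes that remove its mark were followed through 10 genes in RNA-seq of mouse forelimb buds: Ezh1, Ezh2, Eed, Suz12, Rbbp4, Rbbp7, Jarid2, Mtf2, Phf19 and Kdm6b. They were taken by gene name from 46983 gene IDs, and all 10 were listed in each of the 14 libraries. The pre-HH samples, collected before Hedgehog (HH) signaling starts in the limb, were whole forelimb buds at E9.25 (21 to 23 somites), with 3 WT and 4 Gli3-/- libraries. The post-HH samples were the anterior parts of forelimb buds at E10.5 (32 to 35 somites), with 4 WT and 3 Gli3-/- libraries. WT embryos were Swiss Webster, and Gli3-/- embryos were homozygous for the germline Xt-J allele, kept on that background, so that every tissue of the embryo lacked an intact Gli3. Per the labels, about 4 pairs of buds went into a library of the earlier stage and 2 pairs into a library of the later, whereas the study's methods do not set the stages apart in this. The p-values measure the spread between such pools. The comparison of stages also sets whole buds against anterior buds, and these cannot be told apart. In bulk tissue, fewer cells of a type and less RNA per cell cannot be told apart either.

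PRC2 places methyl groups on lysine 27 of histone H3, and the trimethylated form, H3K27me3, marks silent developmental genes. EZH2 or its paralogue EZH1 is the catalytic subunit, and EED, SUZ12 and RBBP4 or RBBP7 complete the core, while JARID2 and the Polycomb-like proteins MTF2 and PHF19 are accessory subunits that help bring the complex to CpG islands. KDM6B removes the mark. In the limb bud PRC2 is known for keeping Hox genes silent outside their domains.

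Values are TPM (transcript abundance scaled for transcript length and library size), so that levels can be set side by side between genes. Fold changes are differences of group means of log2(TPM + 1), tested with limma over all genes that reached 1 TPM in 3 or more of the compared libraries, and called at a Benjamini-Hochberg adjusted p under 0.05. The median gene moved on the TPM scale between groups, and whether the scale shifted or many genes changed was not tested. The median log2 fold change of all genes tested was 0.23 for Gli3-/- against WT at E9.25, -0.02 for the same comparison at E10.5, 0.34 between the stages in WT and 0.06 between the stages in Gli3-/-. Changes are for this reason also set against the median gene. E9.25 WT replicate 2 stood apart. Its 1694 genes that span 100 kb or more deviated by a median of -0.51 log2 from the mean of the other E9.25 WT libraries. Without this library the median log2 fold change of all genes was 0.14 between genotypes at E9.25 and 0.25 between the stages in WT. Gli3 read 44.2, 15.8 and 44.6 TPM in the E9.25 WT libraries and 14.3, 20.6, 20.8 and 19.1 TPM in the Gli3-/- libraries of that stage, so that replicate 2 lay within the range of the mutants (log2 fold change -0.74 ± 0.32 SE, limma adjusted p = 0.223). At E10.5 Gli3 fell by 1.01 on the log2 scale, from 73.4 to 89.7 TPM down to 38.7 to 40.9 TPM (adjusted p = 0.000335, limma).

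Ezh1 and Mtf2 were higher and Rbbp7 was lower at the later stage in both genotypes, and the 250 bases upstream of these 3 genes are shown because they moved in both. Ezh1 lies at chr11:101191115-101226463 on the minus strand, Mtf2 at chr5:108065674-108109004 on the plus strand and Rbbp7 at chrX:162760402-162779092 on the plus strand in the coordinates of the tables. The upstream windows are from RefSeq (GRCm38.p6) at chr11:101226464-101226713, chr5:108065424-108065673 and chrX:162760122-162760371, each printed 5′ to 3′ on the strand of its gene.
Ezh1 upstream: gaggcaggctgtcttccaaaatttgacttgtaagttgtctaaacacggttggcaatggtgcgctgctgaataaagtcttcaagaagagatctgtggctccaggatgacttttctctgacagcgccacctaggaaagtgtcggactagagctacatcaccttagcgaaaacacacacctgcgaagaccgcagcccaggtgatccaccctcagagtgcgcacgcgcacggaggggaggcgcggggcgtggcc
Mtf2 upstream: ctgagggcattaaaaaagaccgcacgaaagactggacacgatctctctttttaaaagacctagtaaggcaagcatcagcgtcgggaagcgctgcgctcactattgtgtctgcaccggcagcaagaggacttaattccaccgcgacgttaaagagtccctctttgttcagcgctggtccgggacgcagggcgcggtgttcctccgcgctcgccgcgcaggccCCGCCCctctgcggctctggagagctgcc
Rbbp7 upstream: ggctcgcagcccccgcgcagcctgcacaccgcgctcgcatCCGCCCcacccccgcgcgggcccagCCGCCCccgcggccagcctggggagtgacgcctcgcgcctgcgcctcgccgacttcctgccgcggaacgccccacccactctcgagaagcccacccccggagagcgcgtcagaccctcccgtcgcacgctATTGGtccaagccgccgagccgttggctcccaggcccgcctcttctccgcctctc
Capitals mark a CCAAT box (CCAAT or its complement ATTGG) or a GC box (GGGCGG or CCGCCC). The window of Rbbp7 held 2 GC boxes and 1 CCAAT box, that of Mtf2 held 1 GC box, and that of Ezh1 held neither. Of the 10 genes, 9 had a promoter entry. A GC box was present in 6 of these 9 and in 10727 of 32536 windows of the same length, and a CCAAT box in 5 of 9 and 33.8%. Each window ends at the RefSeq start of its gene. That start lay 1300 bases from the listed gene start for Jarid2, 311 bases for Ezh2 and 0 to 50 bases for the others. The Jarid2 window counted for both boxes and the Ezh2 window for the CCAAT box. The E2F strings TTTCCCGC, TTTGGCGC, TTTCGCGC and TTTGCCGC, searched on both strands, were present in Suz12 and Phf19 and in 1.87% of all windows. The GLI consensus GACCACCCA was in none of the 9 windows and in 0.218% of all, and the ETS string CCGGAAG was in none and in 6.95%. None of these strings contains another. The GC content of the 9 windows ran from 54.4% to 76.4%, beside a median of 52.4% over all windows.

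**Figure D1:**
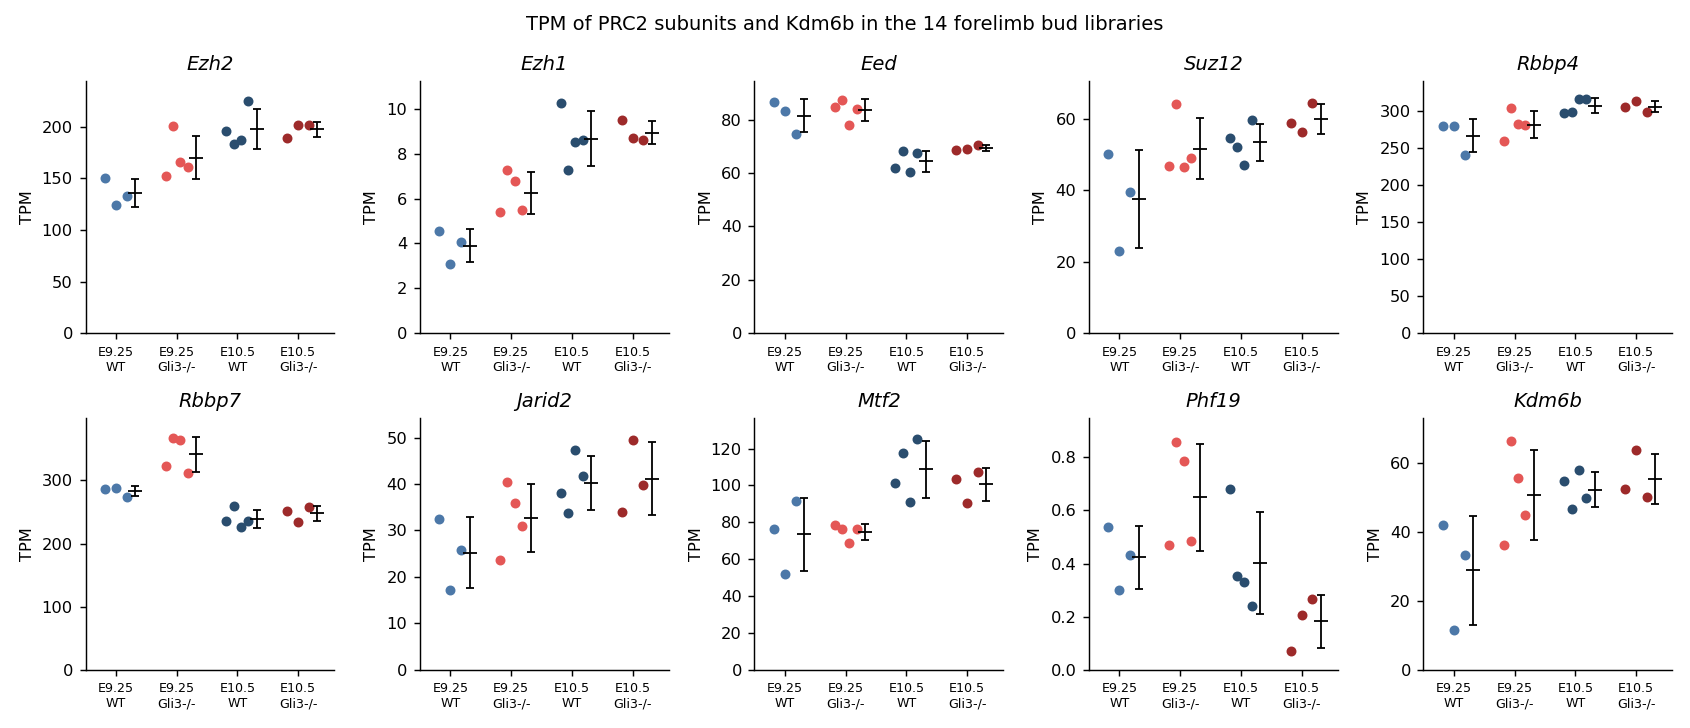
TPM of the 10 genes in each library (points) with the mean ± SD of each group (black) for E9.25 WT (n = 3), E9.25 Gli3-/- (n = 4), E10.5 WT (n = 4) and E10.5 Gli3-/- (n = 3); each panel starts at 0 and has its own scale. Rbbp7 ran from 312 to 367 TPM in the E9.25 Gli3-/- libraries and from 225 to 289 TPM in all others, and the lowest points of Suz12, Jarid2, Mtf2 and Kdm6b are E9.25 WT replicate 2.

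The 10 genes spanned a wide range of levels. The histone-binding subunits were the most abundant, with medians over the 14 libraries of 299 TPM for Rbbp4 and 267 TPM for Rbbp7. Ezh2 followed at 185 TPM, Mtf2 at 90.7 TPM, Eed at 72.7 TPM, Suz12 at 51.2 TPM, Kdm6b at 50.04 TPM and Jarid2 at 34.9 TPM. Ezh1 had a median of 7.29 TPM, and Phf19 stayed below 1 TPM in every library, between 0.0721 and 0.856 TPM. Among 12360 genes expressed at 1 TPM or more in all 14 libraries, Ezh2 lay above 93.1% by median level and Ezh1 above 19.8%. Phf19 did not reach the filter, so that 9 of the 10 genes were tested in each comparison.

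Loss of Gli3 changed none of the 9 by the adjusted test at either stage. At E9.25 limma called 0 of 9, beside 0.136% of the 14760 genes tested, and 4 of the 9 (Ezh1, Ezh2, Rbbp7 and Kdm6b) had an unadjusted p under 0.05, beside 3247 genes of all tested. The Gli3-/- libraries lay wholly above the WT libraries for 3 of 9 (Ezh1, Ezh2 and Rbbp7), beside 9.97% of all genes tested. Markers of other cells went in both directions or overlapped. Summed TPM of 6 endothelial markers ran from 62.5 to 102 in WT and from 110 to 163 in Gli3-/-, and that of 7 flank and lateral plate markers from 23.8 to 64.5 and from 81.2 to 223, in both cases with no overlap. Of the single endothelial markers only Cdh5 and Kdr were apart, and of the flank markers Gata6 and Hand1 overlapped. Sums of 6 ectoderm markers (147 to 218 and 198 to 340), 6 limb mesenchyme markers (687 to 860 and 646 to 943) and 6 blood markers (10849 to 19825 and 7728 to 26282) overlapped. Of these lists limma called 2 of 6 tested flank markers and none of the 6 of each other list. Within the ectoderm list Krt18 was higher and Fgf8 lower in Gli3-/-, each with no overlap. The sum of 5 muscle progenitor markers was lower in Gli3-/- with no overlap (2.29 to 3.83 in WT and 0.436 to 1.30). Of these 5 only 1 was tested, and it was not called. At E10.5 limma again called 0 of 9, beside 4.77% of 15654 genes. An unadjusted p under 0.05 was reached by 0 of the 9, beside 3061 of the 15654. The groups were apart for 1 of 9 (Eed, higher in Gli3-/-), beside 7.87% of all genes in that direction. At that stage the ectoderm sum was apart as well (178 to 217 in WT and 267 to 301 in Gli3-/-). Of its 6 markers only Fgf8 was apart (50.4 to 69.0 TPM in WT and 131 to 171 TPM in Gli3-/-). The median log2 fold change of the 6 was -0.18. The limb mesenchyme sum was lower in Gli3-/- (834 to 1016 and 645 to 684), but its 6 markers did not all move alike. Limma called 4 of them lower and 1, Fgf10, higher (10.2 to 13.1 TPM in WT and 25.5 to 27.3 TPM in Gli3-/-), while Tbx5 overlapped. The endothelial sums overlapped (88.02 to 104 and 89.6 to 108). The part of these cells in the genotype differences was not tested. Log2 fold changes at E10.5 ran from -0.11 ± 0.11 SE for Mtf2 to 0.16 ± 0.09 SE for Suz12, and the widest 95% interval, that of Jarid2, ran from -0.29 to 0.35.

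Between the stages 7 of the 9 were called in WT, 5 of them higher and 2 lower at E10.5, and 3 of the 9 in Gli3-/-, 2 higher and 1 lower. The background was high in WT: 48.7% of 15444 genes were called, 38.1% higher and 10.6% lower. In Gli3-/- it was 25.0% of 15434 genes, 15.8% higher and 9.17% lower. The median log2 fold change of the 9 was 0.56 in WT, beside 0.34 for all genes, and 0.22 in Gli3-/-, beside 0.06. With median-of-ratios size factors, which centre each library on its median gene, the WT comparison called 3080 genes higher and 3362 lower in place of 5885 and 1635, and of the 9 it called Ezh1 higher and Eed and Rbbp7 lower. In Gli3-/- the same scaling called these same 3 genes in the same directions, beside 2399 genes higher and 2229 lower of the 15434 tested. The groups were apart for 7 of 9 in WT (5 higher, 2 lower), beside 53.5% of all genes, and for 4 of 9 in Gli3-/- (2 higher, 2 lower), beside 35.7%.

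The tissue also differed between the stages. Summed TPM of 7 markers of the flank and lateral plate next to the bud ran from 23.8 to 64.5 in the WT and from 81.2 to 223 in the Gli3-/- libraries of E9.25, but from 1.73 to 3.98 in E10.5 WT and from 1.13 to 1.58 in E10.5 Gli3-/-, and all 5 tested in WT and all 6 tested in Gli3-/- were lower at E10.5. Of these markers Foxf2 was listed at 0 throughout E9.25 WT, and Foxf2 and Wt1 were at 0 throughout E10.5 WT. Summed TPM of 5 muscle progenitor markers moved the other way, from 2.29 to 3.83 (WT) and 0.436 to 1.30 (Gli3-/-) at E9.25 up to 30.2 to 37.7 in E10.5 WT and 20.1 to 30.9 in E10.5 Gli3-/-, with all 3 tested markers higher in both genotypes and Myod1 at 0 throughout E9.25. Their part in the changes of PRC2 genes was not tested. Summed TPM of 12 proliferation genes overlapped more, at 2486 to 2775 and 2622 to 2897 in the WT and Gli3-/- libraries of E9.25 and 2771 to 2881 and 2787 to 2998 in those of E10.5. The WT comparison called 1 of the 12 higher (Top2a, a DNA topoisomerase) and 1 lower (Cdk1, the mitotic kinase), beside a background of 38.1% higher and 10.6% lower. The Gli3-/- comparison called 2 higher (Top2a and Mki67, a marker of cycling cells) and none lower, beside 15.8% and 9.17%. The number higher was below the background in WT and near it in Gli3-/-, and the number lower in WT was near it.

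**Figure D2:**
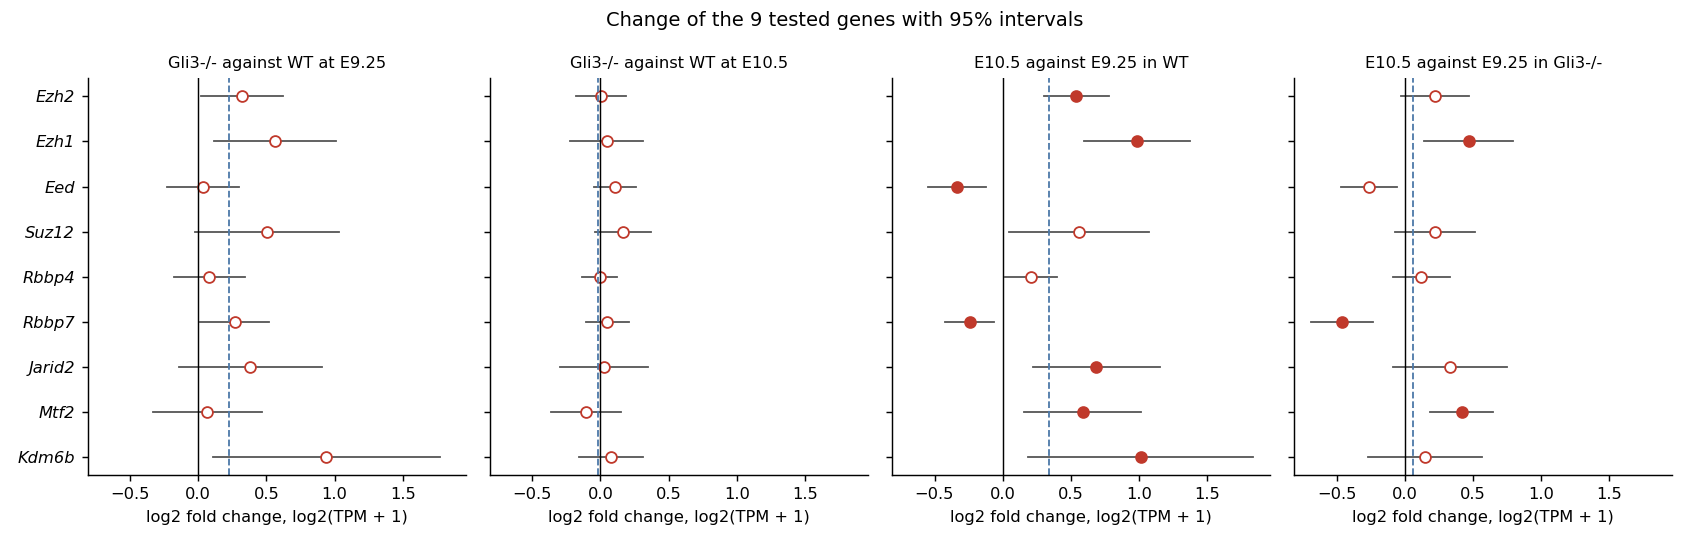
Log2 fold change on the log2(TPM + 1) scale of the 9 tested genes in 4 comparisons, with 95% intervals from limma; filled points have an adjusted p under 0.05, the solid line is 0 and the dashed line is the median of all genes tested. Filled points appear only in the panels that compare stages, 7 in WT and 3 in Gli3-/-, and Eed and Rbbp7 lie to the left of the dashed line in both.

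The catalytic subunits both rose between the stages in WT. Ezh2, the main methyltransferase of dividing cells, read 151, 124 and 133 TPM in E9.25 WT, 153, 201, 166 and 162 TPM in E9.25 Gli3-/-, 196, 183, 187 and 226 TPM in E10.5 WT, and 189, 202 and 202 TPM in E10.5 Gli3-/-. E9.25 WT held the 3 lowest values of the 14 libraries, and the mutant libraries of that stage lay between them and E10.5 WT except replicate 2. The rise in WT was 0.54 ± 0.10 SE (limma adjusted p = 0.00414) and 0.20 relative to the median gene, and the call was lost with size factors (0.18, adjusted p = 0.176). In Gli3-/- the stage difference was 0.22 ± 0.11 SE (adjusted p = 0.179, limma), and without E9.25 Gli3-/- replicate 2 it was 0.30 and passed (adjusted p = 0.0392). At E9.25 the difference between genotypes was 0.32 ± 0.13 SE (limma adjusted p = 0.22), of which 0.10 was above the median gene.

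Ezh1, which in most tissues is linked to non-dividing cells, read 4.58, 3.09 and 4.05 TPM in E9.25 WT, 5.38, 7.28, 6.78 and 5.50 TPM in E9.25 Gli3-/-, 10.3, 7.30, 8.55 and 8.62 TPM in E10.5 WT, and 9.52, 8.72 and 8.62 TPM in E10.5 Gli3-/-. The order of the groups was E9.25 WT, E9.25 Gli3-/- and then both E10.5 groups, with no overlap except between those at E10.5. Ezh1 rose by 0.98 ± 0.17 SE in WT (limma adjusted p = 0.00271; 0.65 relative to the median gene) and by 0.47 ± 0.15 SE in Gli3-/- (adjusted p = 0.0409; 0.41 relative to it). The call in WT held when any of the 7 libraries was left out (0.86 to 1.08). In Gli3-/- it held in 1 of 7, that without E9.25 Gli3-/- replicate 2 (0.54, adjusted p = 0.0218), and was lost without each of the others, with values from 0.41 to 0.51. At E9.25 Gli3-/- exceeded WT by 0.56 ± 0.20 SE (limma adjusted p = 0.217). A fit of all 14 libraries with a shared spread called Ezh1 there (limma adjusted p = 0.0452), the only one of the 9 genes it called. That fit called 1185 of all 14760 genes tested, in place of 20 in the main fit.

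Of the core subunits that join EZH2, Eed fell and Suz12 did not pass. Eed, which binds H3K27me3 and stimulates the enzyme, read 86.8, 83.2 and 74.7 TPM in E9.25 WT, 84.9, 87.5, 77.8 and 84.1 TPM in E9.25 Gli3-/-, 61.8, 68.1, 60.2 and 67.4 TPM in E10.5 WT, and 68.5, 69.0 and 70.7 TPM in E10.5 Gli3-/-. All 7 libraries of E9.25 lay above all 7 of E10.5. Eed fell by 0.34 ± 0.09 SE in WT (limma adjusted p = 0.0185; -0.67 relative to the median gene), and the call was lost without E10.5 WT replicate 1 (adjusted p = 0.0571) or 3 (adjusted p = 0.055). In Gli3-/- the log2 fold change was -0.26 ± 0.09 SE (adjusted p = 0.0642, limma), which passed in 4 of the 8 alternatives that kept all libraries, size factors among them (-0.34, adjusted p = 0.0266). Eed thus fell in WT where Ezh2 and Ezh1 rose.

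Suz12, the scaffold of the complex, read 50.2, 23.1 and 39.5 TPM in E9.25 WT, 46.9, 64.3, 46.5 and 49.0 TPM in E9.25 Gli3-/-, 54.8, 52.2, 47.1 and 59.7 TPM in E10.5 WT, and 58.8, 56.3 and 64.6 TPM in E10.5 Gli3-/-. The spread in E9.25 WT was wide, from its replicate 2 at 23.1 TPM to replicate 1 at 50.2 TPM, and all groups overlapped with a neighbour. The stage difference in WT was 0.56 ± 0.23 SE (limma adjusted p = 0.0677), passed in a single model of all 14 libraries (adjusted p = 0.027) and was 0.25 without E9.25 WT replicate 2 (adjusted p = 0.141). It passed without E9.25 WT replicate 1 (0.80, adjusted p = 0.0142), when replicate 2 was 1 of the 2 WT libraries left at E9.25. In Gli3-/- it was 0.22 ± 0.13 SE (adjusted p = 0.258, limma), and 0.33 without E9.25 Gli3-/- replicate 2 (adjusted p = 0.0405).

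The paralogous histone-binding subunits differed in direction. Rbbp4 read 279.7, 280.2 and 242 TPM in E9.25 WT, 259, 305, 283 and 282 TPM in E9.25 Gli3-/-, 298, 300.0, 316 and 317 TPM in E10.5 WT, and 305, 314 and 299.8 TPM in E10.5 Gli3-/-. Its stage difference was small, 0.21 ± 0.08 SE in WT (limma adjusted p = 0.0649) and 0.12 ± 0.09 SE in Gli3-/- (adjusted p = 0.39), although the WT groups were apart. In WT its sign turned with size factors (-0.15), and it passed in a single model of all 14 libraries (adjusted p = 0.0427, limma). Rbbp7, which is X-linked, read 286, 289 and 274 TPM in E9.25 WT, 323, 367, 364 and 312 TPM in E9.25 Gli3-/-, 236, 259.6, 225 and 236 TPM in E10.5 WT, and 252, 233 and 258 TPM in E10.5 Gli3-/-. Every E9.25 library lay above every E10.5 library, and the E9.25 Gli3-/- libraries lay highest. Rbbp7 fell by 0.24 ± 0.08 SE in WT (limma adjusted p = 0.0323; -0.58 relative to the median gene) and by 0.46 ± 0.10 SE in Gli3-/- (adjusted p = 0.00835; -0.52 relative to it). The WT call was lost without E9.25 WT replicate 1 or 2 or E10.5 WT replicate 1, 3 or 4, with log2 fold changes from -0.28 to -0.21 over the 7 fits, and the Gli3-/- call was lost without E10.5 Gli3-/- replicate 2 (-0.42, adjusted p = 0.0519). At E9.25 the genotypes differed by 0.27 ± 0.11 SE (limma adjusted p = 0.22), of which 0.04 was above the median gene. Txlng, on the opposite strand, overlaps Rbbp7 and reached 16.5 TPM, and whether reads were assigned by strand is not given in the sources used here.

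The accessory subunits had their own patterns. Mtf2, a Polycomb-like protein that binds unmethylated CpG, read 76.3, 52.2 and 91.7 TPM in E9.25 WT, 78.6, 76.1, 68.7 and 76.3 TPM in E9.25 Gli3-/-, 101, 117, 91.0 and 125 TPM in E10.5 WT, and 104, 90.4 and 107 TPM in E10.5 Gli3-/-. The mutants were apart between the stages, while in WT the highest E9.25 library (91.7 TPM) lay just above the lowest E10.5 library (91.0 TPM). Mtf2 rose by 0.59 ± 0.19 SE in WT (limma adjusted p = 0.0318; 0.25 relative to the median gene) and by 0.42 ± 0.10 SE in Gli3-/- (adjusted p = 0.015; 0.36 relative to it). The WT value was 0.36 without E9.25 WT replicate 2 (adjusted p = 0.0616), and the call was also lost without E10.5 WT replicate 1, 2 or 4 (0.62, 0.55 and 0.52). The Gli3-/- call was lost without E10.5 Gli3-/- replicate 1 (0.39) or 3 (0.37). With size factors neither passed (adjusted p = 0.281 in WT and 0.0542 in Gli3-/-). Tmed5, on the opposite strand, overlaps Mtf2 and reached 22.3 TPM.

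Jarid2, which lacks demethylase activity and tethers PRC2, read 32.4, 17.2 and 25.9 TPM in E9.25 WT, 23.5, 40.5, 35.8 and 30.9 TPM in E9.25 Gli3-/-, 38.0, 33.7, 47.3 and 41.7 TPM in E10.5 WT, and 33.98, 49.6 and 39.8 TPM in E10.5 Gli3-/-. The WT groups were apart, with 32.4 TPM at E9.25 next to 33.7 TPM at E10.5, and the mutant groups overlapped. Jarid2 rose by 0.69 ± 0.20 SE in WT (limma adjusted p = 0.0236; 0.35 relative to the median gene), by 0.45 without E9.25 WT replicate 2 (adjusted p = 0.0373). The call was lost without E10.5 WT replicate 3 (0.61, adjusted p = 0.0612) or 4 (0.67, adjusted p = 0.06) and with size factors (0.34, adjusted p = 0.109). In Gli3-/- the stage difference was 0.33 ± 0.19 SE (adjusted p = 0.23, limma). Jarid2 spans 192 kb and lies on the chromosome of Gli3, 13, at a distance of 29.0 Mb. Phf19 read 0.539, 0.299 and 0.431 TPM in E9.25 WT, 0.470, 0.856, 0.785 and 0.484 TPM in E9.25 Gli3-/-, 0.680, 0.351, 0.332 and 0.241 TPM in E10.5 WT, and 0.0721, 0.206 and 0.267 TPM in E10.5 Gli3-/-. The highest value of E10.5 Gli3-/- lay below the lowest of E9.25 Gli3-/-, and at these levels a value rests on few reads.

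Kdm6b, the demethylase, read 42.2, 11.4 and 33.3 TPM in E9.25 WT, 36.4, 66.4, 55.7 and 45.1 TPM in E9.25 Gli3-/-, 54.8, 46.8, 58.1 and 49.9 TPM in E10.5 WT, and 52.4, 63.8 and 50.2 TPM in E10.5 Gli3-/-. E9.25 WT replicate 2 stood 1.63 log2 below the mean of the other E9.25 WT libraries (log2 deviation -1.63), the furthest of the 10 genes in that library. In WT the rise was 1.01 ± 0.36 SE (limma adjusted p = 0.0462; 0.67 relative to the median gene). Without E9.25 WT replicate 2 it was 0.47 (adjusted p = 0.0183), and without E9.25 WT replicate 3 or any of the 4 E10.5 WT libraries the call was lost, with values from 0.96 to 1.20. In Gli3-/- the stage difference was 0.15 ± 0.19 SE (adjusted p = 0.61, limma). The difference between genotypes at E9.25 was 0.94 ± 0.38 SE (limma adjusted p = 0.217), and 0.40 without E9.25 WT replicate 2 (adjusted p = 0.44).

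The difference of the genotype effects between the stages was tested as an interaction over all 14 libraries. It was called for 0 of 9, beside 2.13% of 16368 genes. Only Ezh1 had an unadjusted p under 0.05 among the 9 (-0.52 ± 0.22 SE, limma adjusted p = 0.205), beside 3443 of the 16368. The median gene moved by -0.24 in this term, so that Ezh1 was -0.28 relative to it. The 95% interval for Kdm6b ran from -1.82 to 0.10, and that for Eed from -0.18 to 0.33, so that neither is shown to respond alike or differently to Gli3 at the 2 stages.

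Ratios of TPM within a library do not depend on how the library was scaled. The ratio of Ezh2 to Ezh1 was 32.9, 40.2 and 32.8 in the WT and 28.4, 27.6, 24.5 and 29.4 in the Gli3-/- libraries of E9.25, 19.1, 25.1, 21.9 and 26.2 in E10.5 WT, and 19.9, 23.2 and 23.4 in E10.5 Gli3-/-. Ezh2 thus exceeded Ezh1 at least 19.1-fold in every library. The ratio was lower in E9.25 Gli3-/- than in E9.25 WT with no overlap (log2 difference -0.36, exact two-sided permutation p = 0.0286, adjusted p = 0.0857) and lower in E10.5 WT than in E9.25 WT (-0.62, the same p and adjusted p). In Gli3-/- it differed by -0.31 between the stages (exact permutation p = 0.0571, adjusted p = 0.137), and at E10.5 by -0.05 between the genotypes (exact permutation p = 0.657). With 3 against 4 libraries 0.0286 is the smallest p that the test allows, and none of 12 tests of 3 ratios passed after adjustment.

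The ratio of Rbbp4 to Rbbp7 lay on either side of 1 at the 2 stages. It was 0.977, 0.971 and 0.883 in the WT and 0.804, 0.831, 0.778 and 0.902 in the Gli3-/- libraries of E9.25, 1.26, 1.16, 1.40 and 1.35 in E10.5 WT, and 1.21, 1.35 and 1.16 in E10.5 Gli3-/-. All 7 libraries of E9.25 were below 1 and all 7 of E10.5 above it. The log2 difference was 0.45 in WT and 0.58 in Gli3-/- (each exact permutation p = 0.0286, adjusted p = 0.0857). The ratio of Jarid2 to Mtf2 ran from 0.282 to 0.548 over the 14 libraries, with all 4 groups overlapping, and its log2 differences ran from -0.08 to 0.33 (exact permutation p from 0.286 to 0.829).

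**Figure D3:**
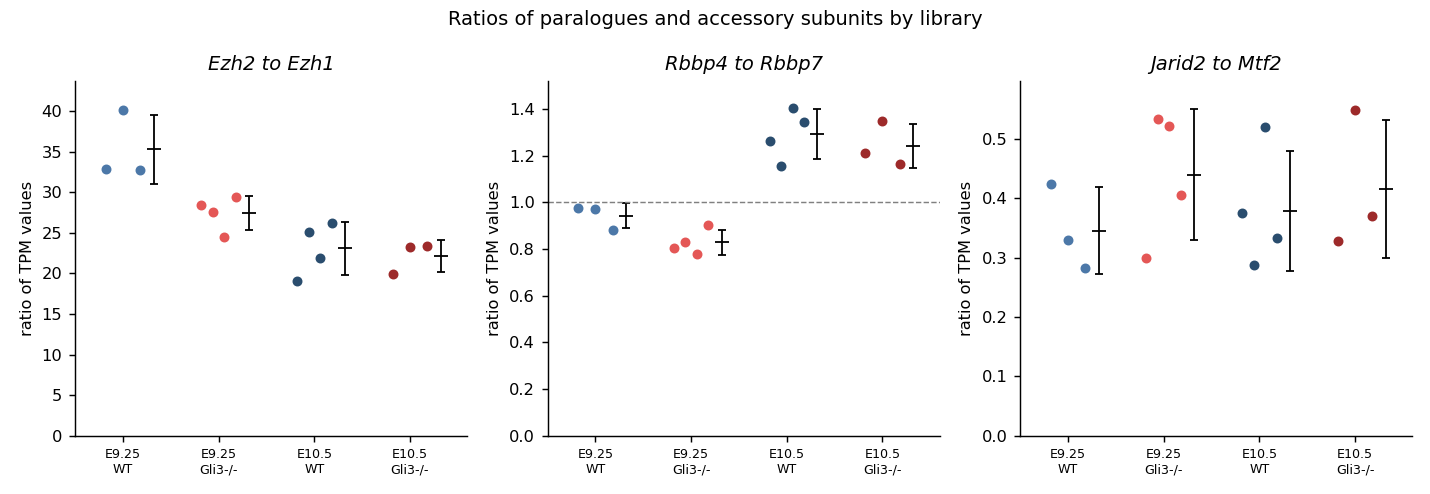
Ratio of the TPM of Ezh2 to Ezh1, Rbbp4 to Rbbp7 and Jarid2 to Mtf2 in each of the 14 libraries (points), with the mean ± SD of each group (black); axes start at 0 and the dashed line marks a ratio of 1. Rbbp4 to Rbbp7 lies below 1 in the 7 libraries of E9.25 and above 1 in the 7 of E10.5, and Jarid2 to Mtf2 overlaps between all groups.

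Other Polycomb genes were followed as a list of 31. It held 5 further PRC2 genes, the H3K27 demethylase Kdm6a and its Y-linked paralogue Uty. It also held 20 genes of PRC1, which binds the mark and ubiquitinates histone H2A, and 4 genes of PR-DUB, which removes that ubiquitin. In each comparison 29 were tested, Ezhip and Cbx7 being below 1 TPM in every library. Between genotypes limma called 0 of 29 at E9.25, beside 0.136% of all genes, and 2 of 29 at E10.5, beside 4.77%, a share near the background. Cbx6, a chromodomain subunit of PRC1, read 24.8, 22.3, 25.1 and 23.8 TPM in E10.5 WT and 17.3, 19.7 and 15.2 TPM in E10.5 Gli3-/- (-0.45 ± 0.10 SE, limma adjusted p = 0.0348). Kdm2b, the CpG-binding subunit of a PRC1 variant, read 53.6, 47.7, 54.5 and 50.6 TPM in WT and 63.7, 71.8 and 63.8 TPM in Gli3-/- (0.36 ± 0.08 SE, adjusted p = 0.0289). The groups were apart for both genes.

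Between the stages 13 of the 29 were higher and 2 lower in WT, and 2 higher and 3 lower in Gli3-/-. The background was 38.1% higher and 10.6% lower in WT and 15.8% and 9.17% in Gli3-/-, so that the number higher in WT was near it. The median of the 29 was 0.50 in WT and 0.13 in Gli3-/-, beside 0.34 and 0.06 for all genes tested. Cbx8, a PRC1 chromodomain subunit, rose most, from 1.53 to 2.51 TPM (WT) and 1.97 to 3.18 TPM (Gli3-/-) at E9.25 to 8.22 to 11.2 TPM in E10.5 WT and 7.20 to 10.04 TPM in E10.5 Gli3-/-. Its log2 fold change was 1.97 ± 0.18 SE in WT (limma adjusted p = 0.000157) and 1.43 ± 0.18 SE in Gli3-/- (adjusted p = 0.000332). Among those higher in WT, the next were Cbx6 at 1.36, Asxl3 at 1.30, Cbx2 at 0.92 and Phf1, a Polycomb-like accessory subunit of PRC2, at 0.82, and in Gli3-/- Asxl3 (0.75) also passed. Asxl3 is a cofactor of PR-DUB, and the Cbx genes encode alternative chromodomain subunits of PRC1. Epop, an accessory PRC2 subunit, fell by 0.75 in WT and by 0.53 in Gli3-/-, and Yaf2, a subunit of variant PRC1, fell by 0.45 and by 0.49, while Pcgf5 fell by 0.79 in Gli3-/-, beside a WT difference of -0.24 that did not pass. No interaction was called among the 29.

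The further demethylase gene Kdm6a and its paralogue Uty are sex-linked. Kdm6a read 11.2 to 16.1 TPM in E9.25 WT, 15.5 to 19.9 TPM in E9.25 Gli3-/-, 20.6 to 27.9 TPM in E10.5 WT and 20.2 to 28.2 TPM in E10.5 Gli3-/-. Kdm6a rose by 0.71 ± 0.17 SE between the stages in WT (limma adjusted p = 0.00989), beside 1.01 for Kdm6b. Without E9.25 WT replicate 2 the Kdm6b value was 0.47, and that library was also the lowest of its group for Kdm6a (11.2 TPM). In Gli3-/- the stage difference of Kdm6a was 0.42 ± 0.14 SE (limma adjusted p = 0.0556). Uty, on the Y chromosome, was listed at 0 in E9.25 WT replicate 2 and at 0.0067 and 0.0202 TPM in E10.5 WT replicate 3 and E10.5 Gli3-/- replicate 2, and between 1.80 and 23.2 TPM in the other 11 libraries. Xist, the X-inactivation RNA, read 0.0354 TPM in E9.25 Gli3-/- replicate 2, 0.206 TPM in E10.5 WT replicate 4 and 1.27 TPM in E10.5 Gli3-/- replicate 3. In the other 11 libraries it read 7.71 to 127 TPM. The labels do not give the sex of the pooled embryos, and its part in the values of sex-linked genes was not tested.

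**Figure D4:**
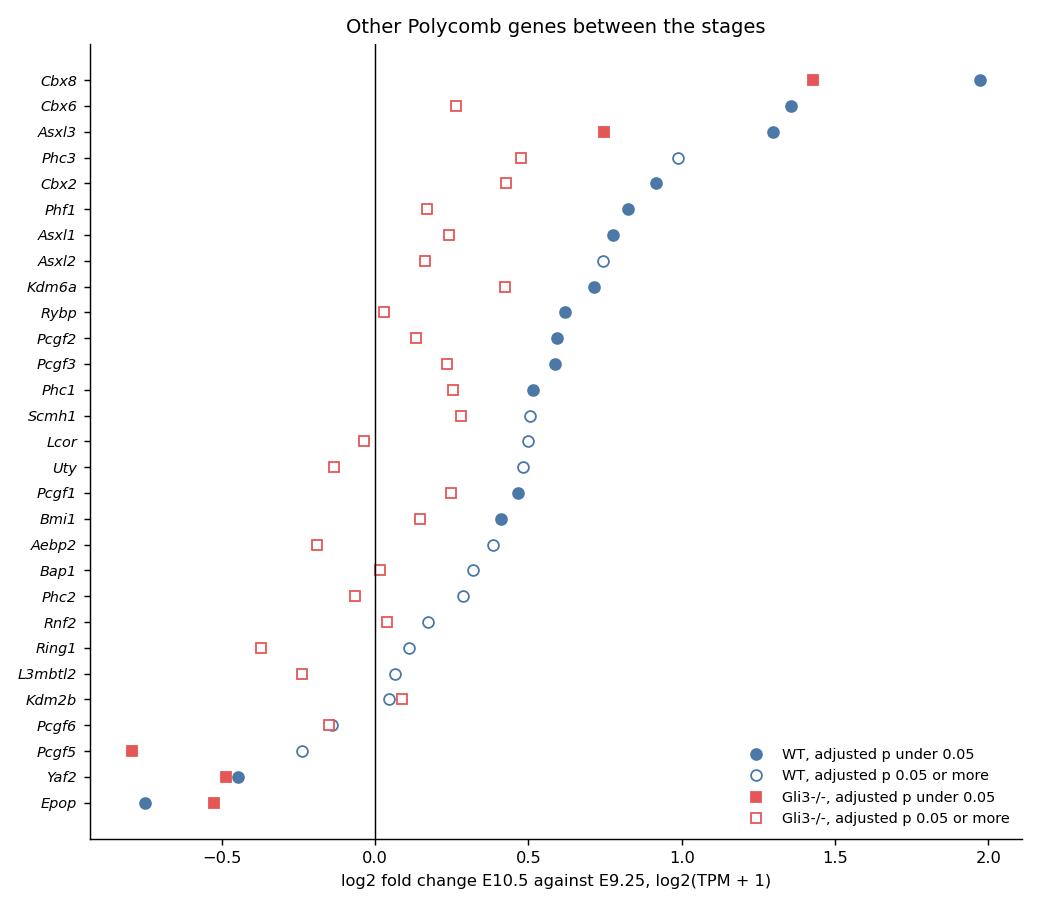
Log2 fold change on the log2(TPM + 1) scale of the 29 tested Polycomb genes outside the 10, for E10.5 against E9.25 in WT (circles) and in Gli3-/- (squares); filled symbols have a limma adjusted p under 0.05 and the vertical line is 0. Of the circles 15 are filled and of the squares 5, with Cbx8 the furthest right in both and Epop and Yaf2 filled on the left in both.

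The genes most like each of 4 of the 10 across the libraries were found by Pearson's r of log2(TPM + 1) over the 14 libraries among 12360 genes. These values describe libraries that share stage and scaling, and carry no test. Ezh2 was most like Cebpg (r = 0.975), Maml2 (0.972) and Cnot7 (0.972), and Ezh1 most like Ankrd10 (0.977), Ncaph (0.976) and Ranbp10 (0.976). Jarid2 was most like Atg2a (0.974), Dvl3 (0.972) and Rgp1 (0.968). Kdm6b had the closest matches, with r = 0.997 to Arid1a, 0.996 to Prr12 and 0.994 to Polr2a, and without E9.25 WT replicate 2 these were 0.988, 0.993 and 0.973. Among the 9 tested genes themselves, Ezh1 and Ezh2 had r = 0.928 over the 14 libraries and r = 0.638 between their deviations from group means, and Jarid2 and Kdm6b had r = 0.899 and 0.878. Eed and Ezh1 had r = -0.71 over the 14 libraries and -0.22 between deviations. Mtf2 and Kdm6b had r = 0.575 with E9.25 WT replicate 2 and 0.0168 without it.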

How the data were processed

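RNA-seq of 14 of 67 samples was analysed, and the other 53 were not analysed here. Per the study's methods, RNA was extracted with TRIzol, sequenced as single reads of 100 bases and aligned with HISAT2, and the study tested genes with a count model, which TPM does not allow. The submitters' processing notes name mm10. The authors deposited coverage (mean read depth per base) and FPKM, used here only to estimate depth, and TPM values, used for every comparison. The tool and annotation are not given in the sources used here. Estimated depth ranged from 38.1 to 56.8 M reads per library, at which 1 TPM is 20.7 to 29.3 reads per kilobase.

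TPM of gene IDs on several lines was summed. Two-sided tests of log2(TPM + 1) used lmFit and eBayes with a trend (limma 3.58.1, R 4.3.3) on the 2 groups compared or, for the interaction, on all 14 libraries, and p-values were adjusted over all genes tested. Ratios were compared by exact permutation over 35 splits, adjusted over 12 tests. Python 3.11.15 (pandas 2.3.3, NumPy 2.4.6, SciPy 1.17.1, matplotlib 3.10.9) was used elsewhere. The scripts were tested on simulated data. Epop and Ezhip were matched through RefSeq synonyms, and 9 of 10 genes had a RefSeq promoter entry.

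The 10 genes, the gene lists and the tests were chosen with earlier results of these data known. Named were all 10 genes, other Polycomb genes called between genotypes or in the interaction, up to 5 per direction between stages, Gli3, and the 3 genes most like Ezh2, Ezh1, Jarid2 and Kdm6b; Kdm6a, Uty, Top2a, Mki67 and Cdk1 and single markers were named after their values were seen. Alternatives were a pseudocount of 0.1, no filter, TPM of at least 5, size factors, a shared model, the replicate number as a block, removal of the trend over gene span, and each library left out. Same-numbered libraries did not all deviate together (r from -0.29 to 0.15 by the numbers in the titles). The deposited tables of E10.5 Gli3-/- carry the numbers 2 to 4 where the titles give 1 to 3, and by table numbers the E10.5 genotypes had r of 0.052, 0.32 and 0.20. The block was also run with the table numbers, chosen after seeing the data. One gene of the Polycomb list is not reported here.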

Additional observations from a re-analysis of the deposited data

Results flagged for a closer look

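Suz12 in E9.25 Gli3-/- replicate 2 stood apart from the other 3 libraries of its group, at a log2(TPM + 1) of 6.03 beside 5.57 to 5.65, a gap of 0.837 of the range of the group against a critical value of 0.829 (Dixon). It was the only such case in 26 groups of 4 libraries examined, and chance marks about 1 in 20. The same library was the highest of its group for Ezh1, Ezh2, Eed, Rbbp4, Rbbp7, Jarid2, Phf19 and Kdm6b. Its median gene lay 0.17 log2 above the mean of the other libraries of the group.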

How the results depend on the processing

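Of the 9 tested genes, limma called 0 between genotypes at E10.5 and 0 in the interaction in the main setting and in every alternative run. At E9.25 it called 1, Ezh1, in a single model of all 14 libraries and 0 in the other 13 alternatives. Between the stages in WT, 7 became 4 without a filter, 3 with size factors, 4 with the replicate block, 6 with a pseudocount of 0.1, 9 in the single model and 3 to 7 with a library left out, and in Gli3-/- 3 became 1 with the replicate block, 4 without a filter and with the span trend removed, and 1 to 5 with a library left out. Phf19, tested without a filter only, had an adjusted p of 0.0335 between the stages in Gli3-/- (-0.48). By title numbers, deviations of same-numbered libraries had correlations from -0.29 to 0.15. The E10.5 Gli3-/- tables are numbered 2 to 4 in place of 1 to 3, and by these numbers the correlations were 0.052 to 0.32 between genotypes at E10.5 and -0.094 to 0.17 between the stages in Gli3-/-. Neither numbering reached 0.1 in every pair. With the block by table numbers, added after seeing the data, 0 of 9 were called between genotypes at E10.5, 0 in the interaction and 2 between the stages in Gli3-/-, where Ezh1 was lost (0.41, adjusted p = 0.0708), and 498 genes of all were called at E10.5 in place of 164 by title numbers. Over all genes the 20 calls at E9.25 ranged from 0 without a filter to 1185 in the model of all 14 libraries, the 747 at E10.5 were as few as 164, the 7520 in WT ran from 4699 to 8400, the 3853 in Gli3-/- from 2129 to 4628 and the 348 of the interaction from 42 to 1433.

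Signs turned for values that were not called. With size factors these were Eed (-0.21), Rbbp4 (-0.17) and Mtf2 (-0.18) between genotypes at E9.25, Rbbp4 between genotypes at E10.5 (0.033) and between the stages in WT (-0.15), and Rbbp4 (0.20), Rbbp7 (0.072) and Mtf2 (0.12) in the interaction. At E10.5 Ezh2 came to -0.00026 with the span trend removed and to -0.00062 with the block by table numbers, and Rbbp4 to 0.0080 with the replicate block. With a library left out, Eed ranged from -0.025 to 0.082 and Mtf2 from -0.16 to 0.24 at E9.25, Ezh1 from -0.024 to 0.12, Ezh2 from -0.033 to 0.067, Rbbp4 from -0.025 to 0.0096, Jarid2 from -0.11 to 0.15 and Kdm6b from -0.025 to 0.15 at E10.5, and Mtf2 from -0.35 to 0.054 in the interaction. The log2 ratio of Ezh2 to Ezh1 came to 0.013 between genotypes at E10.5 with the replicate block and, with 1 TPM added to both genes, to -0.44 between the stages in WT. No ratio passed after adjustment in any setting in which it was tested. The cause of these differences was not tested. Tables without counts allow no test on counts.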
